A study of Mus musculus with 10 samples.

Results

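The genes described here are 59 components of the Wnt signalling pathway in the mouse first pharyngeal arch (PA1), the embryonic tissue that forms the upper and lower jaw. They are a named list of Wnt ligands, receptors, antagonists and target genes, taken by name from the 22114 protein-coding genes in the count table. Of the 59, 57 reached at least 10 counts in at least 1 library and were tested, among 14561 genes tested in all. *Wnt7a* and *Sfrp4* did not reach this minimum.

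RNA from the PA1s of 5 *Grhl2+/+* (WT) and 5 *Grhl2-/-* (KO) embryos at E10.5 was sequenced, and the comparison asks how loss of GRHL2, a transcription factor of surface epithelium, alters arch transcripts. All 10 embryos were male, carried the C57BL/6 background and came from intercrosses of heterozygous carriers of a *Grhl2*-null allele. The whole arch was used, so each library mixes RNA of the thin covering epithelium with that of the bulky mesenchyme and of smaller populations. In such bulk samples, fewer cells of a type and less RNA per cell cannot be told apart.

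Wnt proteins are secreted, lipid-modified ligands that bind Frizzled receptors together with the co-receptors LRP5 and LRP6. In the canonical branch, this binding stops the AXIN- and APC-containing complex from destroying beta-catenin, which then enters the nucleus and activates target genes with TCF and LEF factors. Several targets encode inhibitors of the pathway itself, and in the developing face ligands from the surface ectoderm signal to the underlying mesenchyme during outgrowth of the lip and palate.

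Levels are given as CPM, the counts scaled by library total and TMM factor, and differences as log2 fold changes of KO relative to WT. False discovery rates (FDR) are from limma-voom with adjustment over all 14561 genes, and genes below 0.01 were called. The p-values behind them measure the spread between embryos. Library totals were 22188454 to 28596428 counts in WT and 25658389 to 28801378 in KO, at which 3 reads correspond to 0.104 to 0.136 CPM. The targeted gene, *Grhl2*, had 35.6 ± 3.29 CPM in WT and 4.53 ± 1.45 CPM in KO, where ± is the SD over 5 embryos here and throughout (log2 fold change -3.02, SE 0.174, FDR 2.67e-06). Of 9 epithelial markers, *Epcam*, *Cdh1*, *Cldn6*, *Cldn7* and *Esrp1* were downregulated, whereas the keratins *Krt8*, *Krt18* and *Krt19* and the epithelial factor *Trp63* were not called. The summed level of the 9 was 329 to 443 CPM in WT and 172 to 265 CPM in KO. Among markers of other populations, mesenchymal *Msx1* was downregulated (log2 fold change -0.66, FDR 0.00595) and the endodermal *Nkx2-3* upregulated (0.96, FDR 0.00715), and no other marker passed 0.01. Between 0.01 and 0.05, mesenchymal *Twist1* was lower (-0.34), and the endodermal *Sox17* (0.40), the endothelial *Pecam1* (0.33) and *Kdr* (0.34) and the neural tube genes *Sox1* (3.44), *Sox2* (0.61) and *Otx2* (2.06) were higher, at FDR values of 0.011 to 0.0472. Sensory neuron transcripts varied widely between libraries. Their 10 markers summed to 49.1 CPM in the WT library 1-566 and 41.8 CPM in WT 1-568, against 603 to 1023 CPM in the other WT and 339 to 1330 CPM in the KO libraries.

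In all, 3 genes of the list were downregulated in *Grhl2-/-* PA1 at FDR below 0.01, the ligands *Wnt6* and *Wnt7b* and the secreted antagonist *Dkk1*, and 0 were upregulated. These 3 of 57 are 5.26% of the tested members, where 1.09% of all genes tested were lower and 0.879% were higher by the same rule. At FDR below 0.05 the members numbered 4 lower and 1 higher, and the shares over all genes were 3.87% lower and 3.84% higher. The 5 KO values lay wholly outside the 5 WT values for 7 of 57 members (12.3%), 3 below and 4 above, and for 8.88% of all genes. Over all 57, log2 fold changes were negative for 28 members and positive for 29, with a median of 0.0045 beside 0.011 over all genes. When the 2 WT libraries low in sensory neuron transcripts were left out, 2 members were lower, *Wnt6* and *Wnt7b*, and 0 were higher, and over all genes 0.62% were lower and 0.131% higher. With DESeq2, 5 were lower, *Wnt4* and *Axin2* being added, and 1 was higher, *Dkk3*, and over all genes 3.81% were lower and 3.57% higher. With the label number after the hyphen fitted as a replicate block, 1 was lower, *Wnt7b*, and 0 were higher. Over all genes, 69 were lower and 60 higher with that block. KO 1-628 and KO 3-604 are the only libraries with their label numbers, so they add nothing to the genotype difference in that fit.

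**Figure D1:**
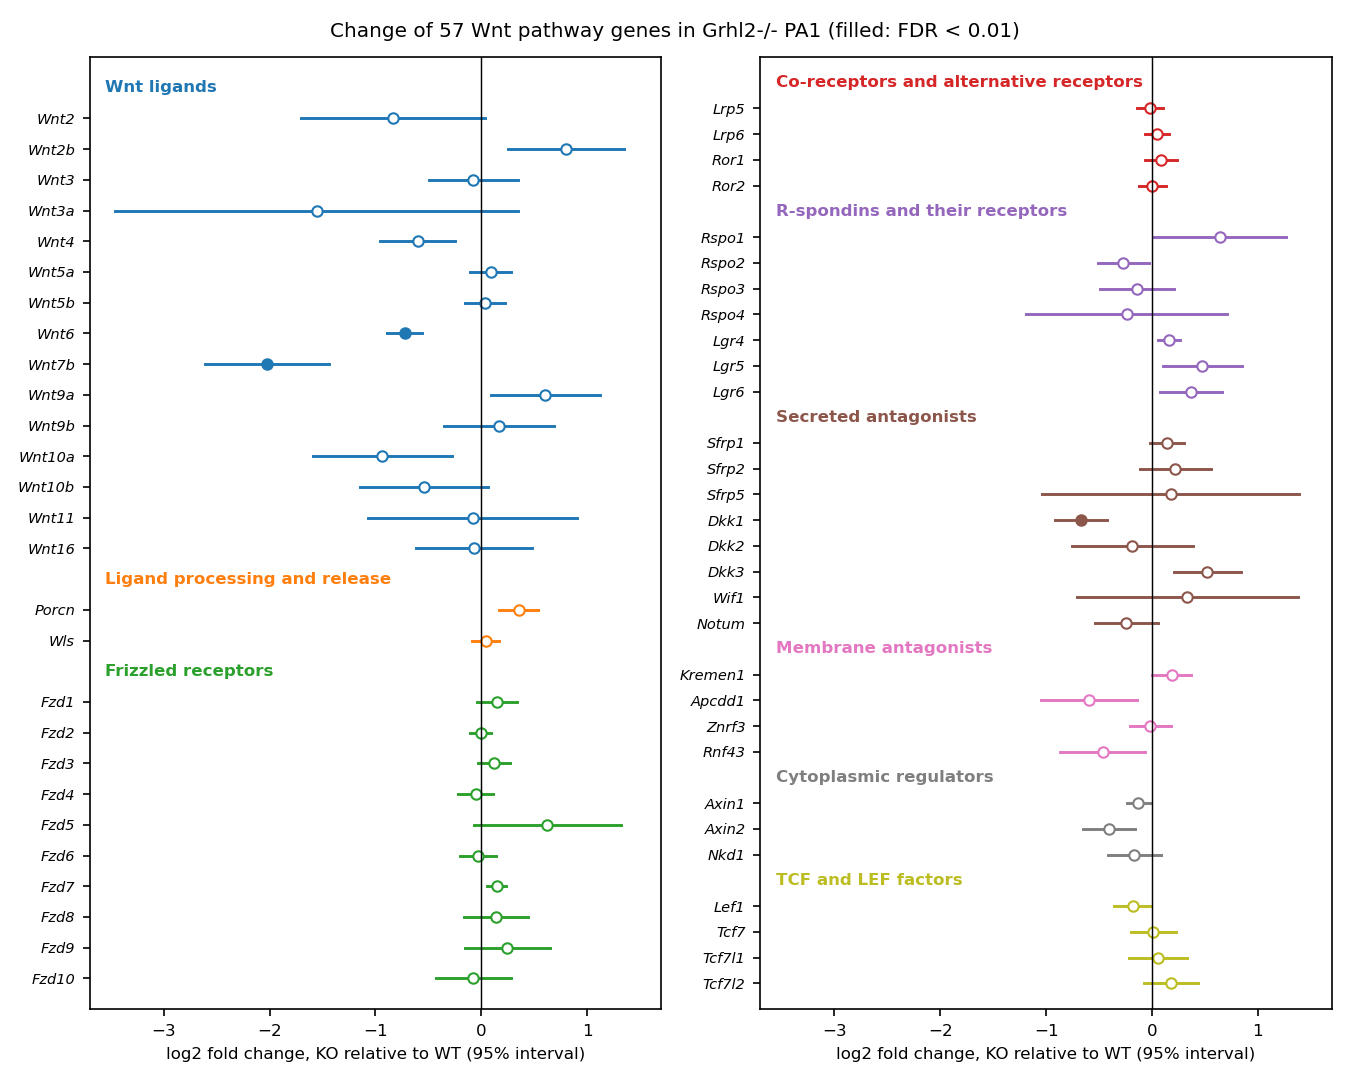
Log2 fold change of each of the 57 tested Wnt pathway genes, KO relative to WT (horizontal axis), with its 95% interval, grouped by role; filled points are genes at FDR below 0.01. The 3 filled points, *Wnt6*, *Wnt7b* and *Dkk1*, lie to the left of 0, the co-receptors sit close to 0, and the Frizzled receptors run from -0.08 to 0.62.

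Transcription start regions of *Wnt6* and *Dkk1* are printed here because these genes were called, and the search in them bears on both a GRHL-type and a TCF-type recognition motif. The windows are from RefSeq on GRCm38.p6 and run from 250 bases before to 50 bases after the start site. The table held windows for 38 of the 59 members, 47 windows in all, and no entry for *Wnt7b*. The *Wnt6* window is chr1:74771642-74771941 on the plus strand and the *Dkk1* window is chr19:30549447-30549746 on the minus strand. Capitals in the latter mark a CTTTGTT, a TCF-type motif, which begins 98 bases before the start site.
Wnt6: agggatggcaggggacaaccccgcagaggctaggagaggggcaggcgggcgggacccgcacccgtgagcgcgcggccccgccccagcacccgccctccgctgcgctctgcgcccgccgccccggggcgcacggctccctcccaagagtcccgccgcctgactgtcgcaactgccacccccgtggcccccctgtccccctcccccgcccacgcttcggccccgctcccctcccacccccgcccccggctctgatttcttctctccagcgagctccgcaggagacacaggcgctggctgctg
Dkk1: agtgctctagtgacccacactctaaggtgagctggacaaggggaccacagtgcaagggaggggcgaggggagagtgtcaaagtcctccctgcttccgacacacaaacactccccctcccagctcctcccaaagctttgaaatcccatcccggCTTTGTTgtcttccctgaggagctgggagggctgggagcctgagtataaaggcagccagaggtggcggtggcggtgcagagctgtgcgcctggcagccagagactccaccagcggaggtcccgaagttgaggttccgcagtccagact

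The GRHL-type motif was searched as AACCGGTT and, more loosely, as AACCNGTT, which includes the former, on both strands. Neither was found in any of the 47 member windows, and over all 32851 windows of this length 0.146% held AACCGGTT and 2.09% held AACCNGTT. CTTTGTT was found in windows of 4 members (*Dkk1*, *Fzd7*, *Wnt3* and *Tcf7l2*), 8.51% of member windows beside 5.85% of all windows. CTTTGAT, the other TCF-type form searched, was found for *Wnt5b* and *Wnt11*, 4.26% of member windows beside 3.73% of all. These matches describe letters in a short window and say nothing of binding, there or elsewhere.

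Of the 15 ligands tested, 2 were called (13.3%), and of the 8 secreted antagonists tested, 1 (12.5%), where 1.96% of all genes were called. *Wnt6*, a ligand of surface ectoderm (chromosome 1, 74771892 to 74785322, plus strand, GRCm38), was measured at 33.1, 29.9, 27.4, 25.6 and 27.1 CPM in the WT libraries 1-566, 1-568, 3-588, 5-566 and 8-568. The KO libraries 1-588, 1-628, 2-566, 2-568 and 3-604 gave 16.1, 17.9, 18.4, 17.4 and 16.4 CPM. Every KO arch was below every WT arch, and the KO arches were tightly grouped. The mean fell from 28.6 ± 2.95 to 17.2 ± 0.999 CPM, a log2 fold change of -0.72 (SE 0.0758, FDR 0.000236), or 39.4% lower. FDR stayed between 0.000248 and 0.0012 as each library was left out in turn. With the replicate block it was 0.0124, above the threshold, at a log2 fold change of -0.70. No annotated gene shares exon sequence with *Wnt6*.

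*Wnt7b*, an epithelial ligand that can act through both beta-catenin and other branches (chromosome 15, 85535437 to 85582473, minus strand), had the largest drop among the called members. In the same order of libraries it was at 12.9, 8.34, 8.43, 10.2 and 9.05 CPM in WT and at 3.53, 3.22, 2.63, 2.28 and 0.965 CPM in KO. The groups were far apart, and the lowest KO library held 25 *Wnt7b* counts while the lowest WT library held 224. Mean levels were 9.77 ± 1.87 in WT and 2.52 ± 0.999 CPM in KO, 4.07-fold apart on the fitted scale (log2 fold change -2.03, SE 0.269, FDR 0.00129). Leaving out single libraries gave FDR values of 0.00074 to 0.00556. An antisense transcript, *AU022754*, overlaps 6.61% of the *Wnt7b* exon sequence, and although the libraries were stranded and the table carries the word reverse, the counting setting itself is not given in the sources used here. Epithelial markers differed in the same libraries to unlike extents, with log2 fold changes of -2.51 for the called *Epcam* and -0.07 for *Krt18*, which was not called, and their part in the levels of *Wnt6* and *Wnt7b* was not tested.

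*Wnt4*, a ligand found in facial ectoderm among other tissues, did not pass 0.01. It was at 12.8, 14.0, 14.1, 9.60 and 14.7 CPM in WT and at 9.02, 8.60, 5.88, 9.32 and 10.7 CPM in KO. Only the WT library 5-566 lay within the KO range. Its log2 fold change was -0.60 (95% interval -0.95 to -0.25, FDR 0.0454), and without the 2 WT libraries low in sensory neuron transcripts it was -0.58 at an FDR of 0.187.

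**Figure D2:**
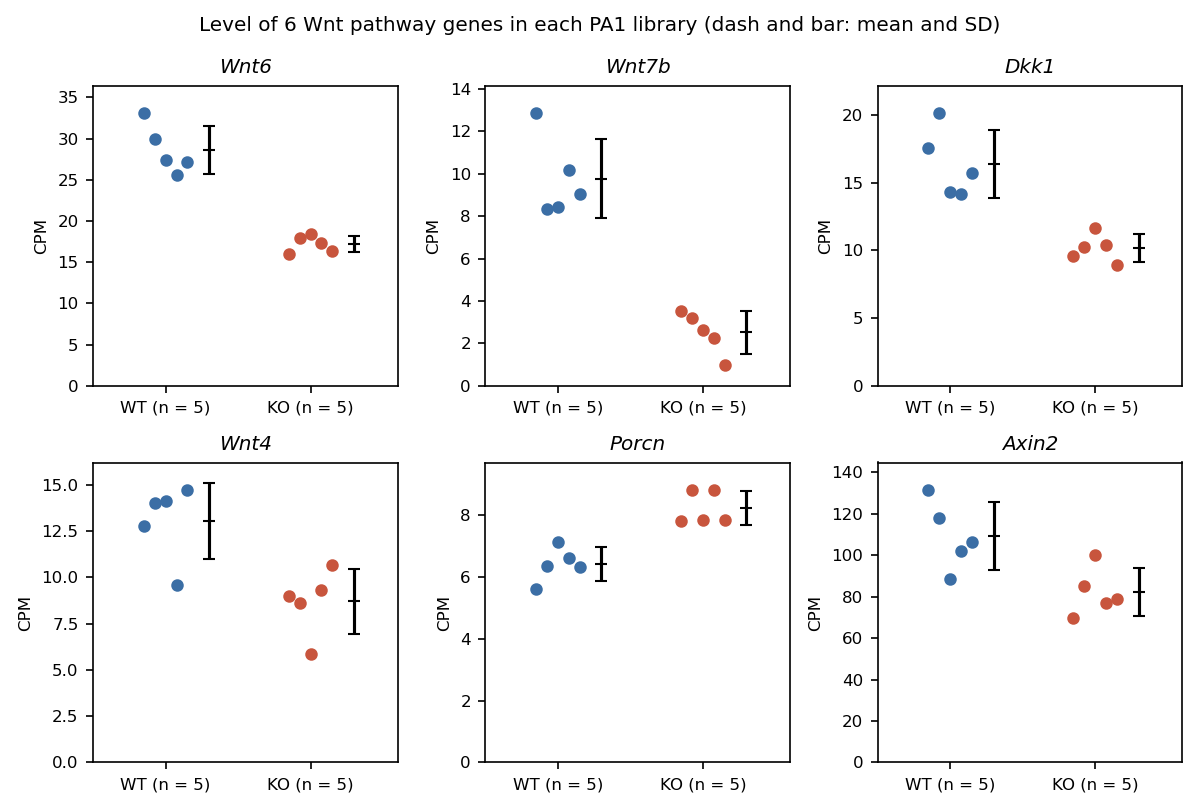
CPM of 6 genes (vertical axes, from 0) in each of the 5 WT and 5 KO libraries, with the mean and SD beside the points. *Wnt6*, *Wnt7b* and *Dkk1* have no overlap between genotypes, *Porcn* is higher in all KO libraries, and *Wnt4* and *Axin2* overlap.

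A further pair of surface ectoderm ligands, *Wnt9b* and *Wnt3*, was not called. *Wnt9b*, required for fusion of the upper lip, was at 17.8, 13.9, 10.1, 11.6 and 9.57 CPM in WT and 9.31, 17.5, 21.5, 12.1 and 10.9 CPM in KO. *Wnt3*, whose gene lies beside *Wnt9b* with 24328 bases between them on chromosome 11, was at 9.27, 6.08, 4.78, 5.85 and 5.17 CPM in WT and 4.96, 7.36, 7.13, 4.48 and 5.02 CPM in KO. The genotypes overlapped for both genes. Their log2 fold changes were 0.16 for *Wnt9b* (95% interval -0.35 to 0.68, FDR 0.683) and -0.08 for *Wnt3* (-0.50 to 0.34, FDR 0.828).

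Within each library, the called genes can be set beside these ligands as log2 ratios, described here without a test because the genes were picked after their values were seen. The log2 ratio of *Wnt6* to *Wnt9b* was 1.22 ± 0.253 in WT and 0.34 ± 0.419 in KO, and that of *Wnt7b* to *Wnt9b* was -0.35 ± 0.261 in WT and -2.56 ± 0.787 in KO. The log2 ratio of *Wnt6* to *Dkk1* was 0.81 ± 0.146 in WT and 0.76 ± 0.0787 in KO.

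Read per kb of exon, *Wnt6* was the most abundant ligand in WT at 13.1 ± 1.34 CPM per kb, ahead of *Wnt5a* at 10.1 ± 1.21 and *Wnt5b* at 6.27 ± 0.602. In KO the order of the first 2 was exchanged, with *Wnt5a* at 10.7 ± 1.18 and *Wnt6* at 7.86 ± 0.456 CPM per kb. *Wnt5a* and *Wnt5b*, which signal mainly through non-canonical branches and ROR receptors, had log2 fold changes of 0.09 (95% interval -0.11 to 0.28) and 0.03 (-0.16 to 0.22). *Wnt6* made up 30.8 ± 0.931% of the summed level of the 16 ligands in WT and 21.9 ± 0.848% in KO, and *Wnt7b* made up 4.70 ± 0.614% and 1.43 ± 0.566%. The sum itself was 39.1 to 49.5 CPM per kb in WT and 34.0 to 39.6 in KO, so a single KO library, 2-566, reached the WT range.

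**Figure D3:**
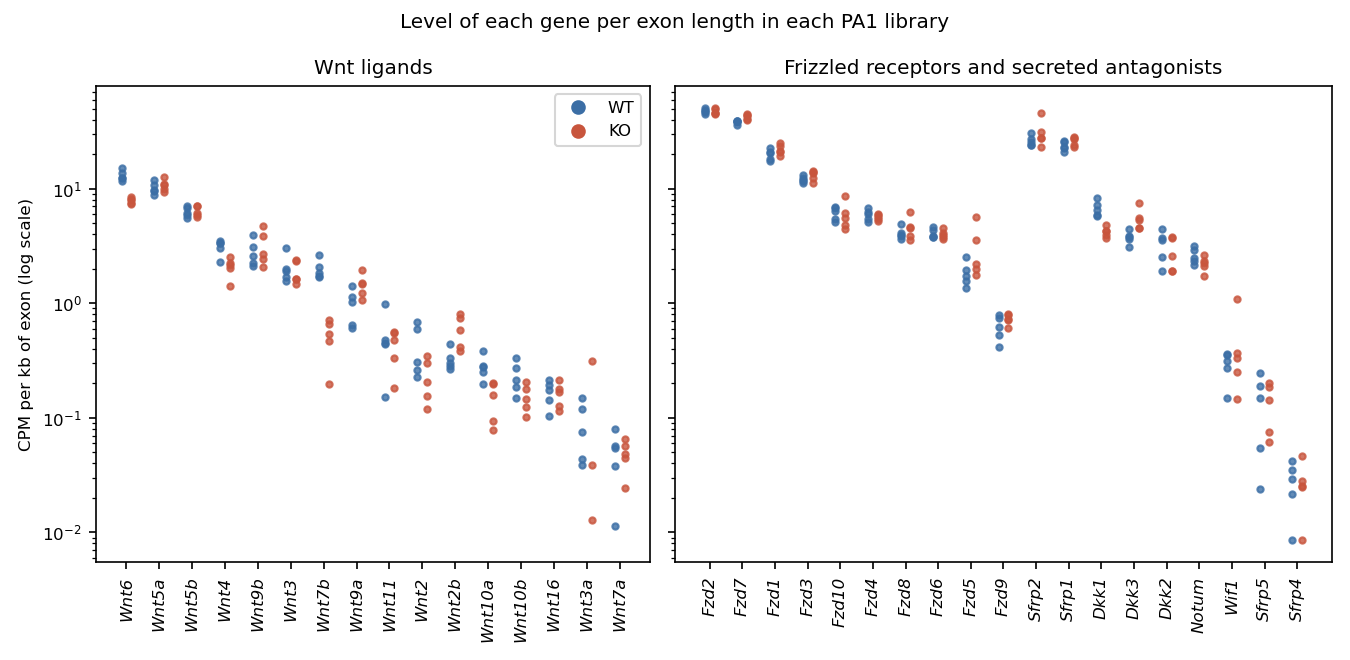
CPM per kb of exon on a log scale (vertical axis) for the 16 ligands (left) and the Frizzled receptors and secreted antagonists (right), each point 1 library, ordered within each role by WT level; libraries with 0 counts are not drawn. *Wnt6* leads the ligands in WT and is passed by *Wnt5a* in KO, while *Fzd2* and *Fzd7* lead the receptors in both.

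The scarce ligands were measured with less precision. *Wnt10a*, whose gene begins 6193 bases beyond the end of *Wnt6*, was at 0.485 to 0.954 CPM in WT and 0.193 to 0.499 CPM in KO. The groups overlapped only slightly, at a log2 fold change of -0.93 (95% interval -1.59 to -0.28, FDR 0.0757). *Wnt2b* went the other way, with 1.13 to 1.85 CPM in WT and 1.62 to 3.39 CPM in KO (log2 fold change 0.80, FDR 0.0706). *Wnt3a*, at 0 to 25 counts a library, had most of its KO counts in 1 library, 2-566, and its 95% interval ran from -3.46 to 0.35. Of the 13 ligands tested that were not called, 8 had negative and 5 had positive log2 fold changes. In *Wnt7a*, which was not tested, no library had more than 7 counts.

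Processing and release of Wnt proteins requires PORCN, the acyltransferase that lipidates them, and WLS, the carrier that brings them to the cell surface. *Porcn* was at 5.63, 6.36, 7.15, 6.62 and 6.34 CPM in WT and at 7.81, 8.83, 7.86, 8.82 and 7.84 CPM in KO, so all KO libraries were above all WT libraries. It did not pass 0.01, at a log2 fold change of 0.35 (95% interval 0.17 to 0.53, FDR 0.0304). Without the 2 WT libraries low in sensory neuron transcripts it was 0.28 at an FDR of 0.201. *Wls*, the more abundant of the pair at 207 ± 11.9 and 213 ± 16.3 CPM, had an interval of -0.09 to 0.17 (FDR 0.696).

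The 10 Frizzled receptors, which bind the ligands directly, were all tested, and 0 were called. The most abundant was *Fzd2* at 47.7 ± 2.37 CPM per kb in WT and 47.4 ± 2.44 in KO, with a log2 fold change of -0.01 (95% interval -0.11 to 0.09, FDR 0.932). *Fzd7* had the only groups that did not overlap, at 164 to 177 CPM in WT and 178 to 201 CPM in KO, but the size of its difference was small (log2 fold change 0.14, FDR 0.0531). *Fzd5*, a receptor prominent in the developing eye, stood out by 1 library. It was at 9.49 to 17.6 CPM in WT, at 12.2 to 24.9 CPM in 4 KO libraries and at 39.5 CPM in KO 1-588, with an FDR of 0.219. That library also had the highest sum of 7 neural tube markers. It was 125 CPM there, against 60.7 to 66.2 in the other KO libraries and 22.0 to 48.2 in WT. *Pax6*, the eye and neural regulator, was at 37.3 CPM, against at most 11.9 elsewhere. *Sox2* (47.3 CPM) and *Otx2* (38.3 CPM) made up most of the rest of the sum, and *En1*, *Nkx2-2* and *Olig2* were each at 0.0713 CPM or less. Whether tissue that carries these transcripts accounts for the *Fzd5* value was not tested. *Fzd8* was also at its highest in KO 1-588, at 37.2 CPM against 21.5 to 29.2 CPM in all others.

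The co-receptors *Lrp5* and *Lrp6* and the alternative receptors *Ror1* and *Ror2*, tyrosine kinase-like proteins that respond to WNT5A, were among the most precisely measured members. All 4 were tested and 0 were called. *Lrp6*, the most abundant of them, was at 325 ± 15.1 CPM in WT and 337 ± 23.2 CPM in KO (log2 fold change 0.05, 95% interval -0.06 to 0.16, FDR 0.544). *Lrp5* had an interval of -0.14 to 0.11, *Ror1* of -0.06 to 0.23 and *Ror2* of -0.13 to 0.13.

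R-spondins amplify Wnt signals by binding LGR4, LGR5 and LGR6 and removing the ligases ZNRF3 and RNF43 from the cell surface. None of these 7 was called. *Lgr4*, the most abundant, was at 104, 108, 105, 102 and 108 CPM in WT and 128, 110, 116, 125 and 112 CPM in KO. All KO values lay above the WT values, at a log2 fold change of 0.16 (95% interval 0.06 to 0.27, FDR 0.0580). *Lgr5* and *Lgr6* were positive as well, by 0.47 (FDR 0.101) and 0.37 (FDR 0.102). *Rspo2*, an R-spondin needed for craniofacial development, ran from 22.8 to 34.0 CPM in WT and 18.2 to 25.1 CPM in KO (log2 fold change -0.27, FDR 0.138).

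Among the secreted antagonists, *Dkk1*, which blocks LRP6 and is itself a target of the pathway, was downregulated. The gene (chromosome 19, 30545863 to 30549665, minus strand) was at 17.6, 20.1, 14.3, 14.1 and 15.7 CPM in WT and at 9.56, 10.3, 11.7, 10.4 and 8.96 CPM in KO. All KO libraries lay below all WT libraries. The mean fell from 16.4 ± 2.52 to 10.2 ± 1.02 CPM, 37.2% lower on the fitted scale (log2 fold change -0.67, SE 0.113, FDR 0.00595). The call was near the threshold. It was lost, at FDR values of up to 0.0178, when WT 1-566, WT 8-568, KO 1-628, KO 2-568 or KO 3-604 was left out, and at 0.0181 without the 2 WT libraries low in sensory neuron transcripts, where the log2 fold change was -0.54. The log2 fold change stayed between -0.72 and -0.59 in the 10 fits that each left out 1 library. With the replicate block the call was also lost, at a log2 fold change of -0.60 and an FDR of 0.0492.

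The other Dickkopf genes were not called. *Dkk3*, a divergent family member that does not share the LRP6 blocking activity of DKK1, was at 12.3, 13.0, 15, 10.5 and 12.8 CPM in WT and at 25.4, 17.8, 15.3, 18.7 and 15.3 CPM in KO. KO values were all above WT values, and KO 1-588 was again the highest. The log2 fold change was 0.52 (FDR 0.0514), 0.39 without KO 1-588 (FDR 0.0373), and the gene passed 0.01 with DESeq2 (FDR 0.00518) but not with edgeR's quasi-likelihood test (FDR 0.0404). Without the 2 WT libraries low in sensory neuron transcripts it was 0.51 at an FDR of 0.205. DESeq2 called more genes of all kinds, 3.81% lower and 3.57% higher, where edgeR called 1.11% and 0.975%. *Dkk2* overlapped, at 7.04 to 16.4 CPM in WT and 7.03 to 13.9 CPM in KO (FDR 0.675).

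Secreted Frizzled-related proteins bind Wnt ligands outside the cell. *Sfrp2*, the most abundant of the 9 secreted antagonists per kb at 26.2 ± 2.88 in WT and 31.1 ± 8.71 in KO, was at 51.3 to 66.4 CPM in WT and 49.6 to 66.8 CPM in 4 KO libraries, with 98.6 CPM in KO 1-588. Its log2 fold change of 0.22 (FDR 0.368) was 0.06 without that library. *Sfrp1* had a log2 fold change of 0.14 (95% interval -0.02 to 0.30, FDR 0.236). *Notum*, a lipase that inactivates Wnt proteins, was at 5.20 to 7.62 CPM in WT and 4.17 to 6.30 CPM in KO (log2 fold change -0.24, FDR 0.262). *Sfrp5* and *Wif1*, an extracellular ligand-binding inhibitor, were near or below 1 CPM in most libraries, and *Sfrp4* never exceeded 5 counts.

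The membrane antagonists include *Znrf3* and *Rnf43*, the ligases that remove Frizzled receptors, *Apcdd1*, an inhibitor that binds ligand and receptor, and *Kremen1*, the DKK1 receptor. None was called. *Apcdd1* was at 61.9, 43.3, 29.1, 44.3 and 43.0 CPM in WT and at 20.9, 27.7, 42.7, 28.5 and 25.1 CPM in KO. The groups overlapped through WT 3-588 and KO 2-566, and the log2 fold change was -0.60 (95% interval -1.05 to -0.15, FDR 0.0923). *Rnf43* had a log2 fold change of -0.47 (FDR 0.124), with its lowest value, 3.42 CPM, in KO 1-588. *Kremen1* was positive, at 0.18 (FDR 0.175). *Znrf3*, the most abundant of the 4 per kb in WT at 7.45 against 7.43 for *Kremen1*, was at 58.8 ± 6.74 and 58.1 ± 6.02 CPM, at a log2 fold change of -0.01 (95% interval -0.21 to 0.18, FDR 0.934).

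*Axin2*, a scaffold of the beta-catenin destruction complex and the most widely used readout of canonical signalling, did not pass the threshold. It was at 132, 118, 88.5, 102 and 106 CPM in WT and at 69.6, 85.0, 100, 77.1 and 79.1 CPM in KO. WT 3-588 and KO 2-566 overlapped the other genotype. The log2 fold change was -0.40 (95% interval -0.65 to -0.16, FDR 0.0511 with limma-voom, 0.0457 with edgeR and 0.00447 with DESeq2). Without WT 1-566 and WT 1-568 it was -0.28 at an FDR of 0.206. *Axin1*, its constitutive relative and the most abundant of the cytoplasmic members at 117 ± 1.98 and 107 ± 8.26 CPM, had a log2 fold change of -0.13 (FDR 0.128). *Nkd1*, an inducible inhibitor of Dishevelled, was at -0.17 (FDR 0.354).

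The 4 TCF and LEF factors, the DNA-binding partners of beta-catenin, included 0 called genes. *Lef1*, the most abundant per kb, was at 74.8 to 91.3 CPM in WT and 62.7 to 84.2 CPM in KO, with a log2 fold change of -0.18 (95% interval -0.36 to -0.01, FDR 0.165). For *Tcf7*, *Tcf7l1* and *Tcf7l2* the values were 0.01, 0.06 and 0.18, each with an interval that spanned 0.

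A subset of 11 members encodes inducible feedback inhibitors or commonly used targets of beta-catenin signalling: *Dkk1*, *Apcdd1*, *Rnf43*, *Axin2*, *Notum*, *Lef1*, *Nkd1*, *Znrf3*, *Tcf7*, *Wif1* and *Lgr5*. Of these 11, 1 was lower (*Dkk1*), beside 1.09% of all genes, and 0 were higher. Their log2 fold changes were negative for 8 and positive for 3, with a median of -0.18, where 6888 of all genes were negative and 7673 positive. The spread within WT was shared by several of them. The libraries 1-566 and 1-568, in which sensory neuron markers were low, held the highest value of the 10 libraries for 4 genes each. KO 1-588, in which the sum of the neural tube list was high, held the lowest for 5, namely *Axin2*, *Nkd1*, *Notum*, *Rnf43* and *Apcdd1*. The part of these marker differences in the levels was not tested.

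**Figure D4:**
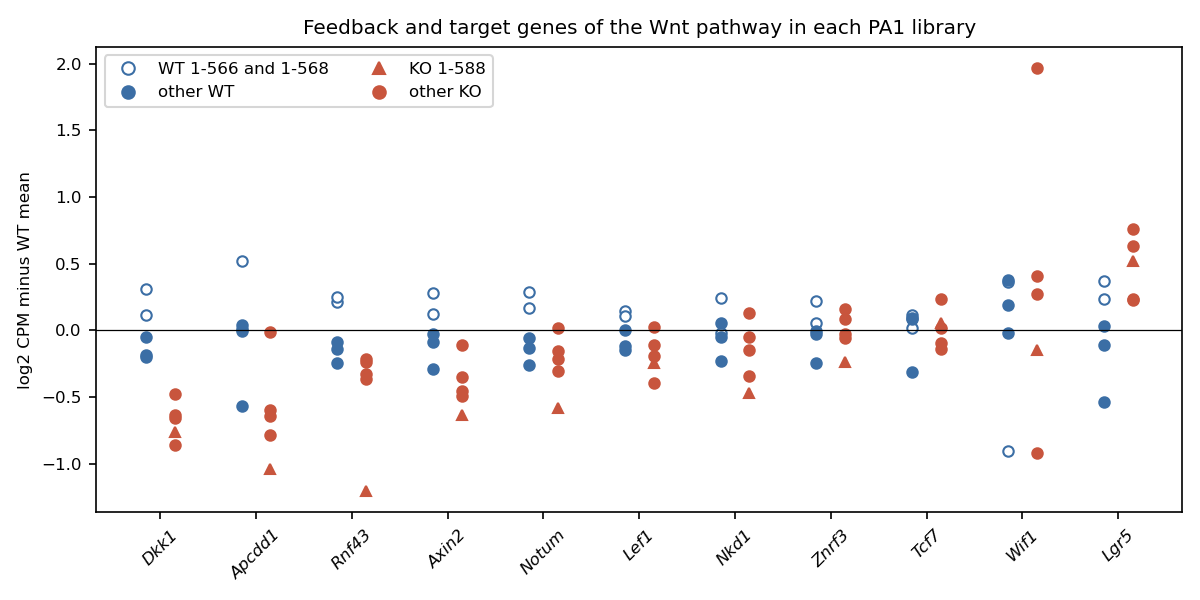
Log2 CPM minus the mean of the 5 WT libraries (vertical axis) for the 11 feedback and target genes, ordered by log2 fold change; open circles are WT 1-566 and 1-568 and triangles are KO 1-588. *Dkk1* is the only gene of the 11 whose genotypes do not overlap. The open circles lie at the top of the WT values for *Dkk1*, *Rnf43*, *Axin2*, *Notum*, *Lef1*, *Znrf3* and *Lgr5*.

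A further 54 genes of the pathway, outside the 59, were examined as context and 50 were tested. The only call was *Sost*, a secreted inhibitor of LRP5 and LRP6. It was at 0.318, 0.539, 0.453, 0.509 and 0.162 CPM in WT (4 to 15 counts) and at 1.14, 1.16, 0.969, 0.996 and 1.12 CPM in KO (28 to 32 counts). All KO values were higher, at a log2 fold change of 1.48 (SE 0.273, FDR 0.0096), but the call did not survive the omission of any of the 10 libraries, which gave log2 fold changes of 1.21 to 1.61 and FDR values of 0.0128 to 0.0305. At FDR below 0.05, 4 more were different. The targets and inhibitors among them were *Nkd2* (-0.48, FDR 0.0209) and the cell-cycle target *Ccnd1* (-0.28, FDR 0.0282), which were lower, and *Dact1* (0.32, FDR 0.0190) and the target *Sp5* (1.38, FDR 0.0271), which were higher. These are 2% of the 50 called at 0.01 and 10% at 0.05, where 1.96% and 7.71% of all genes passed in either direction. Of all 50, 27 log2 fold changes were negative and 23 positive, and the median was -0.01.

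The data limit how large an undetected change in the whole-arch level of the other members could be. They set no such limit on a change within the thin epithelium alone, since mesenchyme makes up the bulk of the arch. Of the 54 tested members that were not called, the 95% interval lay within a 2-fold change in either direction for 41, and within 1.5-fold for 31. The 13 with wider intervals were *Wnt2*, *Wnt2b*, *Wnt3a*, *Wnt9a*, *Wnt10a*, *Wnt10b*, *Wnt11*, *Fzd5*, *Rspo1*, *Rspo4*, *Sfrp5*, *Wif1* and *Apcdd1*. For these 13 a 2-fold change is not excluded. Without adjustment over genes, the interval of 18 of the 54 lay wholly to one side of 0, *Wnt2b*, *Wnt9a*, *Wnt10a*, *Rspo1* and *Apcdd1* among them. With the 3 called members this makes 21 of 57, or 36.8%, beside 28.5% of all genes.

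**Figure D5:**
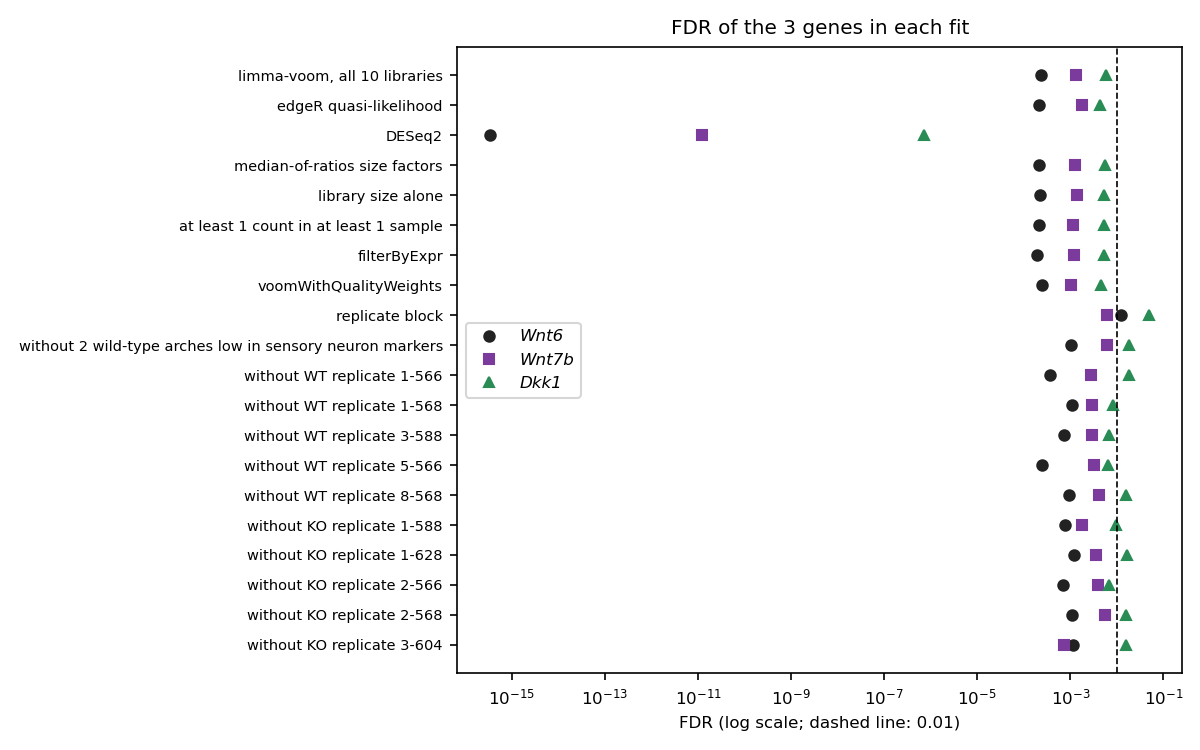
FDR of *Wnt6*, *Wnt7b* and *Dkk1* (horizontal log axis) in the limma-voom fit of all 10 libraries and in each alternative fit (vertical axis), with the 0.01 threshold dashed. *Wnt7b* is below 0.01 in every fit drawn, *Wnt6* in all but the replicate block (0.0124), and *Dkk1* crosses the line when single libraries are left out.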

How the data were processed

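The authors deposited a table of raw counts of protein-coding genes in 10 PA1 libraries, made with STAR and featureCounts on GRCm38, from stranded total RNA depleted of ribosomal RNA. A second deposited table, with the authors' own log2 fold changes, adjusted p-values and average expression, was not used. Counts were TMM-normalized and fitted with limma-voom (limma 3.58.1, edgeR 4.0.16, R 4.3.3), genotype being the only term, after removal of genes below 10 counts in every library; genes at FDR below 0.01 were called. The prior count was 0.5. The fits were also run on simulated data with changes of a single size, which does not cover smaller changes. Between libraries of 1 genotype the chi-square per gene was 7.29 or more, so none was a repeated library.

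The members and gene lists were chosen with earlier results of these data known. Full values are given for members at FDR below 0.01, and values with FDR for members below 0.05, members called by edgeR's quasi-likelihood test or DESeq2 1.42.0, and the most abundant member per kb of each role; other members named were chosen after their values were seen. Of the other pathway genes, those called are named, and the 4 at FDR below 0.05 were added. Exon lengths, coordinates and overlaps are from GENCODE mouse release 21 (GRCm38), matched by identifier for 114 of 114 genes. Intervals are 95% and cover the spread between embryos. Alternatives were other tests, scalings, filters, sample weights, thresholds, a replicate block and leaving out libraries; the fit without 2 WT libraries was added after the data were seen. A further epithelial marker was left out of that list and is not reported here.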

Additional observations from a re-analysis of the deposited data

Results flagged for a closer look

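The summed level of the neural tube markers in KO 1-588 was 125 CPM, far from the nearest KO library at 66.2 CPM. *Sox2*, *Otx2* and *Pax6* made up most of that level. The sum was picked out by its gap, 0.915 of the range of the 5 KO libraries. Across 56 groups of 5 looked at in this way, 1 stood apart, and chance alone marks about 1 in 20. The same library had the highest *Fzd5*, *Fzd8*, *Sfrp2* and *Dkk3* of the KO libraries.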

How the results depend on the processing

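*Wnt6* and *Wnt7b* kept their direction in every alternative and FDR below 0.01 in all of them, except for *Wnt6* under the replicate block (0.0124). Of the counts, the members called lower rose to 5 with DESeq2 (with *Wnt4* and *Axin2* added) and fell to 1 with the replicate block. Single-library omissions gave 2 to 3. Over all genes, those lower numbered 158 in the main fit, 555 with DESeq2, 69 with the block and 110 to 249 over the omissions. Members called higher numbered 1 with DESeq2 (*Dkk3*) and 1 at FDR below 0.05 (*Porcn*), and 0 in every omission. Over all genes, those higher numbered 128 in the main fit, 520 with DESeq2 and 559 at FDR below 0.05. Of the other pathway genes, those lower numbered 2 with DESeq2, 2 at FDR below 0.05 and 0 to 1 over the omissions. Those higher numbered 2 with edgeR, 3 with DESeq2, 3 at FDR below 0.05, 0 with the replicate block, 0 without the 2 WT libraries and 0 to 1 over the omissions. The *Grhl2* log2 fold change ran from -3.16 to -2.86. No called value changed sign; *Fzd2* and *Znrf3*, whose log2 fold changes were near 0, did so in some fits. Other scalings moved the median of all genes to at most 0.029. The meaning of the label number after the hyphen is not given in the sources used here. Of 5 same-numbered WT and KO pairs, 2 had deviations correlated above 0.1 (mean r 0.0766). Of 20 pairs with different numbers, 10 did (mean r -0.0157). Same-numbered values ran from -0.398 to 0.561, too wide for 5 pairs to decide whether the number pairs the libraries. With that replicate block, in which KO 1-628 and KO 3-604 do not inform the genotype difference, *Dkk1* had an FDR of 0.0492 and *Sost* 0.0652. Counts of 0 to 25 a library limit *Wnt3a*, whereas intervals were also wide for *Fzd5* and *Apcdd1*.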
